A study of Mus musculus with 2 samples.

Results

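The genes described here encode 8 growth factors through which stromal cells speak to lymphoid and myeloid cells: Il7, Il15, Kitl, Flt3l, Tslp, Csf1, Csf2 and Csf3. They were chosen by name, as the array probes that carry one of these symbols or a RefSeq accession of one of these genes, and all 8 were found, with 12 probes, among 19505 genes named on the array. The list was drawn up with earlier results of these data known. Expression was measured in stromal cells of the fetal thymus of C57BL/6 mice on 2 two-colour arrays. One array held cells of E14.5 fetuses, kept as lobes in organ culture for 8 days, and the other held cells of E15.5 fetuses, kept so for 9 days. All lobes received 1.35 mM deoxyguanosine, a nucleoside used to deplete haematopoietic cells, and were then dispersed. On each array the cells grown for 72 h in reaggregate thymus organ culture (RTOC), in which they pack together on a membrane, were labelled with Cy5, and those grown for 72 h in a flat dish (2D culture) were labelled with Cy3. No array had the dyes exchanged, so a preference of a probe for one dye cannot be told apart from the culture. Nor can the stage be told apart from the days of organ culture or from the array, and no source names a sorting step before the cultures. The labels do not say from how many fetuses each array was made.

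Interleukin-7 and thymic stromal lymphopoietin (Tslp) are cytokines that sustain lymphoid precursors, and interleukin-15 sustains natural killer cells and memory-type T cells. Kit ligand (Kitl, stem cell factor) and Flt3 ligand act on early haematopoietic progenitors through receptor tyrosine kinases, and Kitl also on mast cells. The colony stimulating factors act on macrophages (Csf1), on granulocytes and macrophages (Csf2) and on neutrophils (Csf3). In the thymus, epithelial cells are the best known source of Il7, whereas the fibroblasts and endothelium that share the stroma also make several of these factors.

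Values rest on short probes of 60 bases, and 3 of the genes were read by more than 1 probe. The first 30 bases of these probes are shown from 5′ to 3′, because probes of 1 gene gave different readings below. No pair of probes of the same gene shared a run of more than 7 bases, so each reads a stretch of its own.
Il7 probe A_51_P391454: aagatagaaatgcacttattccaaagatac
Il7 probe A_52_P54218: gcccgaataatgaaccaaacttttttagaa
Il7 probe A_52_P660552: tgcttcaaacatattgaatattctttgata
Il15 probe A_52_P15461: tgcaggttattttacatgagtacagtaaca
Il15 probe A_52_P383066: gttccgttgcttatctactcagtgagacaa
Kitl probe A_51_P133936: ctaaggtgactatttatgatcctagaatgt
Kitl probe A_52_P572571: ttggctacgagatatggtaatacaattatc
Csf2 had a single probe, printed 10 times on the array.
Csf2 probe A_51_P171075: tctgaaaacgctgactcagcttggacagcg

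Of the 8 growth factor genes, 7 passed the test between the cultures. Il7, Kitl and Il15 were higher in RTOC, Csf2, Tslp, Csf1 and Csf3 were lower, and Flt3l did not pass. Csf2 was well above background in 2D culture alone, so it entered the test only through the culture where it was high. The test was limma's moderated test of the log2 ratio of RTOC over 2D culture against 0, two-sided, with Benjamini-Hochberg adjustment over 23685 probes and a threshold of 0.05 (n = 2 arrays). A gene with several probes was represented by its brightest one. By the same rule 28.1% of all 13498 named genes tested were called, 15.4% as higher and 12.7% as lower in RTOC. After normexp correction and loess, a processing that adds an offset to dim signals, 4 of the 8 genes (Il7, Kitl, Csf1 and Csf2) were called, beside 18.9% of named genes. The median ratio of the 8 genes was -0.67 on the log2 scale, beside 0.00 over all named genes tested, and with normexp correction and loess it was -0.04 beside 0.02. Levels are given below as the log2 of the quantile-normalised signal, which can be compared between channels for 1 probe but not between probes. RNA of whole cultures was measured, in which fewer cells of a type and less RNA per cell cannot be told apart.

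**Figure D1:**
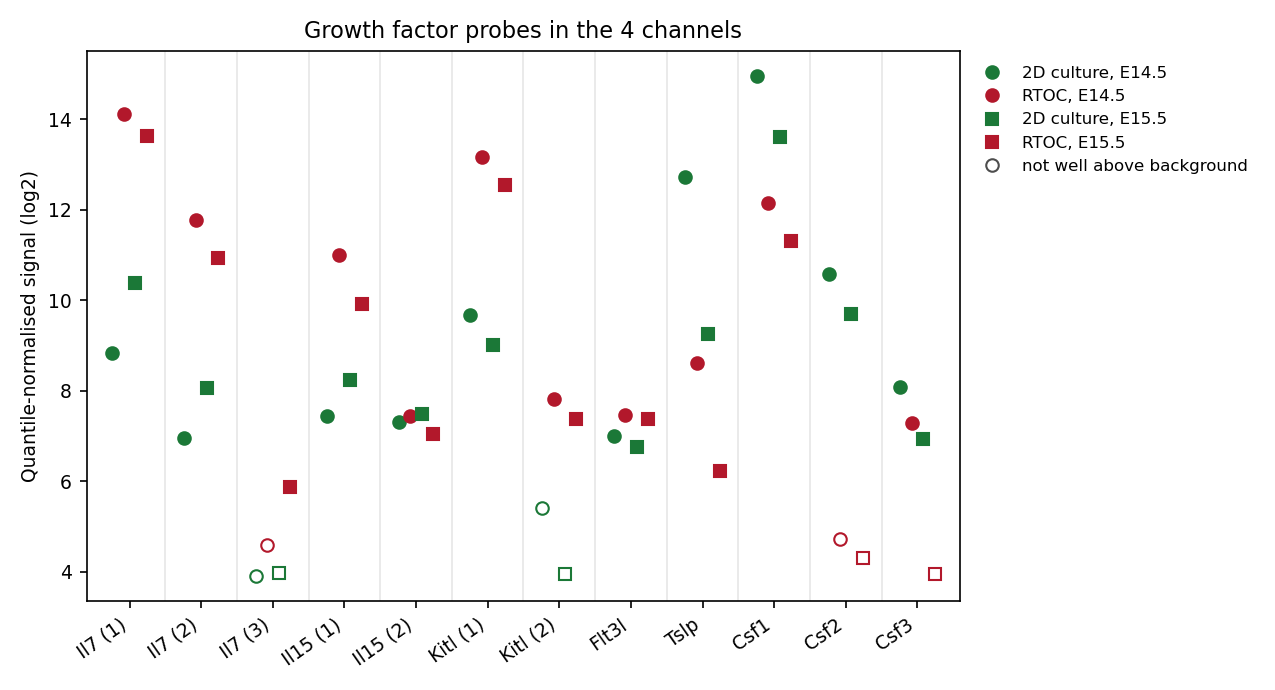
Signal of every growth factor probe, as log2 of the quantile-normalised intensity, in 2D culture (green) and RTOC (red) on the E14.5 (circles) and E15.5 (squares) arrays; open symbols are not well above background, and numbers in brackets count the probes of a gene from the brightest. Il7, Il15 (brightest probe) and Kitl lie higher in RTOC, and Tslp, Csf1, Csf2 and Csf3 lower.

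Il7 had the highest mean ratio of the 8 genes, although Kitl was the higher on the E15.5 array. At E14.5 its brightest probe read 8.84 in 2D culture against 14.11 in RTOC, and at E15.5 it read 10.38 against 13.62. Both RTOC channels thus lay above both 2D channels, and the cultures stood farther apart on the E14.5 array. The log2 ratio was 5.27 (E14.5) and 3.24 (E15.5), a mean of 4.26 ± 1.44 (SD, n = 2 arrays; SE 0.50, limma adjusted p = 0.00422), or 19.1-fold. With normexp correction and loess it was 3.58 (limma adjusted p = 0.0272). Of the 13498 named genes tested, 68 had a higher mean ratio.

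The second Il7 probe, A_52_P54218, was dimmer and read 6.96 in 2D culture and 11.78 in RTOC (E14.5), and 8.05 and 10.93 (E15.5). Its ratio was 4.81 and 2.89, a mean of 3.85 (SE 0.48, limma adjusted p = 0.00497), so that the order of the arrays was that of the brightest probe. The third probe, A_52_P660552, which the array lists for a cDNA clone of neonatal thymus, was well above background only in RTOC on the E15.5 array, and it was not tested. In 2D culture Il7 read 1.54 higher on the E15.5 than on the E14.5 array, whereas in RTOC it read 0.49 lower. That difference has no test, since each culture and stage was measured once.

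Kitl showed the most even ratio between the arrays with quantile normalisation. With normexp correction and loess Flt3l did, at a difference of -0.03 beside 0.34 for Kitl. The brightest Kitl probe, printed 10 times on each array, read 9.66 in 2D culture and 13.17 in RTOC (E14.5), and 9.01 and 12.55 (E15.5). The levels of the cultures did not overlap, and both fell by a like amount between the stages (0.64 in 2D culture and 0.61 in RTOC). The ratio was 3.51 and 3.54, a mean of 3.53 ± 0.02 (SD, n = 2 arrays; SE 0.25, limma adjusted p = 0.00170), or 11.5-fold. With normexp correction and loess it was 2.81, or 7.02-fold (limma adjusted p = 0.0115). Over the 10 spots it ran from 3.42 to 3.59 on the E14.5 array and from 3.45 to 3.65 on the E15.5 array. The second probe, A_52_P572571, was well above background in RTOC on both arrays (7.81 and 7.37) and in 2D culture on neither (5.40 and 3.95). It bounds the difference as at least 1.41-fold higher in RTOC (the fitted difference had limma adjusted p = 0.00383). Such a bound sets the brighter culture against the lowest signal well above background in the other channel, or the probe's own signal where that is higher, after normexp correction, loess and Aquantile normalisation. Dye bias cannot be told apart from it.

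Il15 was higher in RTOC by its brightest probe, A_52_P15461, and not by the other. The brightest probe read 7.44 in 2D culture and 11.00 in RTOC (E14.5), and 8.23 and 9.92 (E15.5), with no overlap of the cultures. Its ratio was 3.56 and 1.70, a mean of 2.63 ± 1.32 (SD, n = 2 arrays; SE 0.47, limma adjusted p = 0.0141), or 6.19-fold. The mean rested more on the E14.5 array, and without it the ratio was 1.70. The other probe, A_52_P383066, which the array lists for a shorter isoform of the factor, was dim, though well above background in all 4 channels. It read 7.31 and 7.43 (E14.5) and 7.49 and 7.05 (E15.5) in 2D culture and RTOC, so the cultures overlapped. Its mean of -0.16 (95% interval -0.85 to 0.53, limma adjusted p = 0.690) lies apart from the interval of the brightest probe, 1.45 to 3.80. The part of the dim signal in that gap was not tested. After normexp correction and loess the brightest probe read 1.60 and did not pass (limma adjusted p = 0.0564).

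Flt3l, the remaining ligand of an early progenitor receptor, was dim and well above background in every channel. It read 6.99 in 2D culture and 7.45 in RTOC (E14.5), and 6.75 and 7.38 (E15.5). Both RTOC values were the higher ones, by 0.47 and 0.63. The mean ratio of 0.55 did not pass (SE 0.25, 95% interval -0.08 to 1.18, limma adjusted p = 0.156), and the interval leaves room for a rise of up to 1.18 on the log2 scale.

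**Figure D2:**
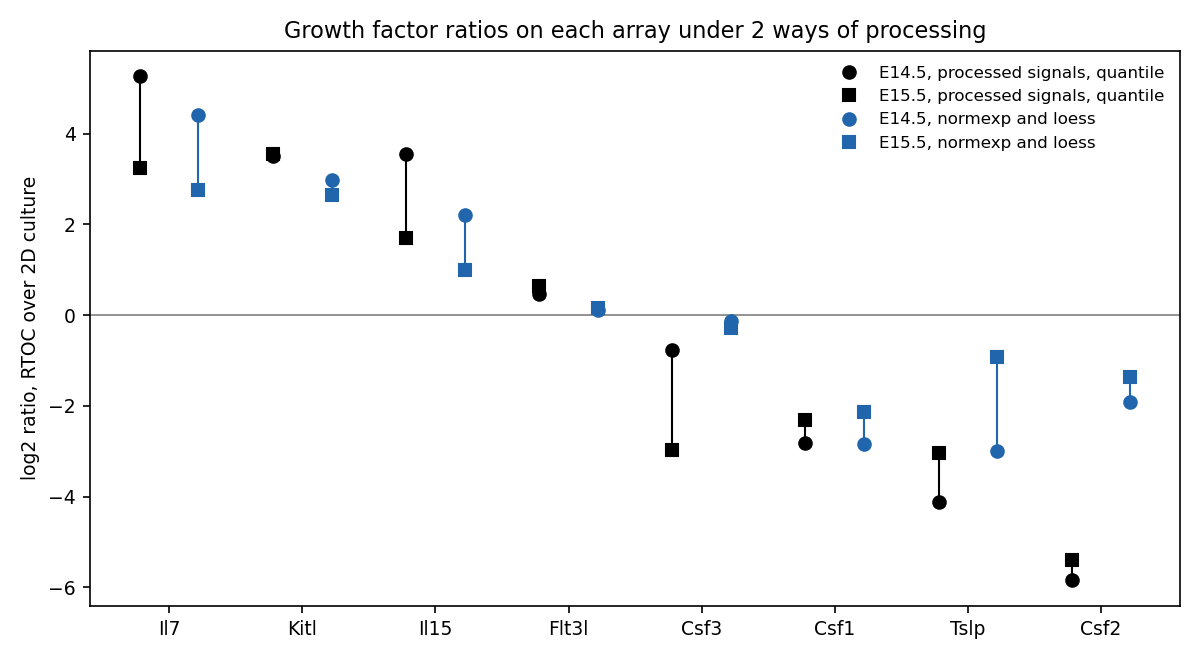
Ratio (log2, RTOC over 2D culture) by the brightest probe of each gene on the E14.5 (circles) and E15.5 (squares) arrays, from processed signals with quantile normalisation (black) and after normexp correction and loess (blue); lines join the 2 arrays. The gene order runs from Il7 (mean 4.26) to Csf2 (mean -5.63, with RTOC at background), and Csf3 moves from -1.88 to -0.21 between the ways of processing.

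Tslp was lower in RTOC on both arrays. It read 12.73 in 2D culture and 8.62 in RTOC (E14.5), and 9.26 and 6.22 (E15.5). On each array 2D culture was the higher, and its E15.5 level still lay above the E14.5 level of RTOC, so the cultures did not overlap although the stages stood far apart. The ratio was -4.11 and -3.03, a mean of -3.57 ± 0.76 (SD, n = 2 arrays; SE 0.34, limma adjusted p = 0.00262), which makes RTOC 11.9-fold lower. In RTOC at E15.5 the probe was dim, with a raw signal of 47.8 against a background of 38.0. The size of the E15.5 ratio, and with it that of the mean, is therefore not exact. Between the arrays the level of Tslp fell by 3.47 in 2D culture and by 2.40, to that dim value, in RTOC from E14.5 to E15.5. Of the 13498 named genes, 15 fell by more in 2D culture, and the fall has no test. After normexp correction and loess the ratio was -3.00 and -0.93, a mean of -1.96 (limma adjusted p = 0.0915), and with the 4 channels taken as independent samples it did not pass either (limma adjusted p = 0.114).

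Csf1, the macrophage factor, was bright in both cultures and lower in RTOC. Its probe, printed 10 times, read 14.96 in 2D culture and 12.14 in RTOC (E14.5), and 13.61 and 11.30 (E15.5). Both 2D channels lay above both RTOC channels. The ratio was -2.83 and -2.31, a mean of -2.57 ± 0.36 (SD, n = 2 arrays; SE 0.27, limma adjusted p = 0.00338), or 5.93-fold lower in RTOC. Its 10 spots ran from -2.89 to -2.77 (E14.5) and from -2.38 to -2.22 (E15.5), so spot error was small beside the difference. The mean was -2.49 after normexp correction and loess.

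Csf2 was above background in 2D culture alone. All 10 spots were well above background in 2D culture on each array and none in RTOC. The mean level was 10.58 in 2D culture and 4.72 in RTOC (E14.5), and 9.70 and 4.29 (E15.5). RTOC was at least 3.08-fold lower. The adjusted p of a bounded probe belongs to its fitted difference and not to the bound, and here it was 0.00161 with limma. With normexp correction and loess the difference was -1.64 (limma adjusted p = 0.0239). The measured difference of -5.63 on the log2 scale has its RTOC side in the background, where the spots scattered from -6.96 to -4.61 on the E14.5 array and from -6.16 to -4.89 on the E15.5 array.

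**Figure D3:**
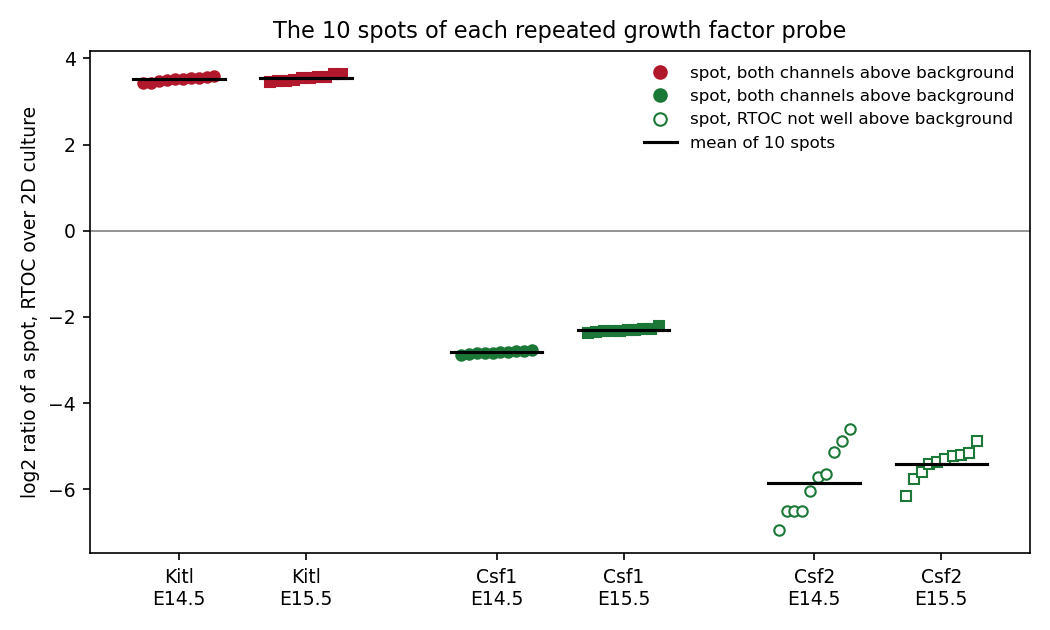
Log2 ratio of RTOC over 2D culture at each of the 10 spots of the Kitl, Csf1 and Csf2 probes, ordered by value within an array, with the mean as a line. Open symbols have RTOC not well above background; Kitl spots lie between 3.42 and 3.65, Csf1 spots between -2.89 and -2.22, and the Csf2 spots are spread from -6.96 to -4.61.

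Csf3, the neutrophil factor, passed by a small margin and only under some ways of processing. It read 8.08 in 2D culture and 7.29 in RTOC (E14.5), and 6.93 and 3.95 (E15.5), the last not well above background. The E15.5 level of 2D culture lay below the E14.5 level of RTOC, so the cultures overlapped. The ratio was -0.78 and -2.98, a mean of -1.88 ± 1.55 (SD, n = 2 arrays; SE 0.53, limma adjusted p = 0.0492). The E15.5 ratio has its RTOC side in the background, so its size, and with it that of the mean, is not exact. Without the E15.5 array the ratio was -0.78, and after normexp correction and loess the mean was -0.21 (limma adjusted p = 0.296). Csf3 was the single gene of the 7 called whose cultures overlapped. The levels of the cultures did not overlap for 7 of the 8 genes, Flt3l among them and Csf3 not, against 65.3% of all named genes tested. Csf2 is counted among these 7 with its RTOC levels at background.

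**Figure D4:**
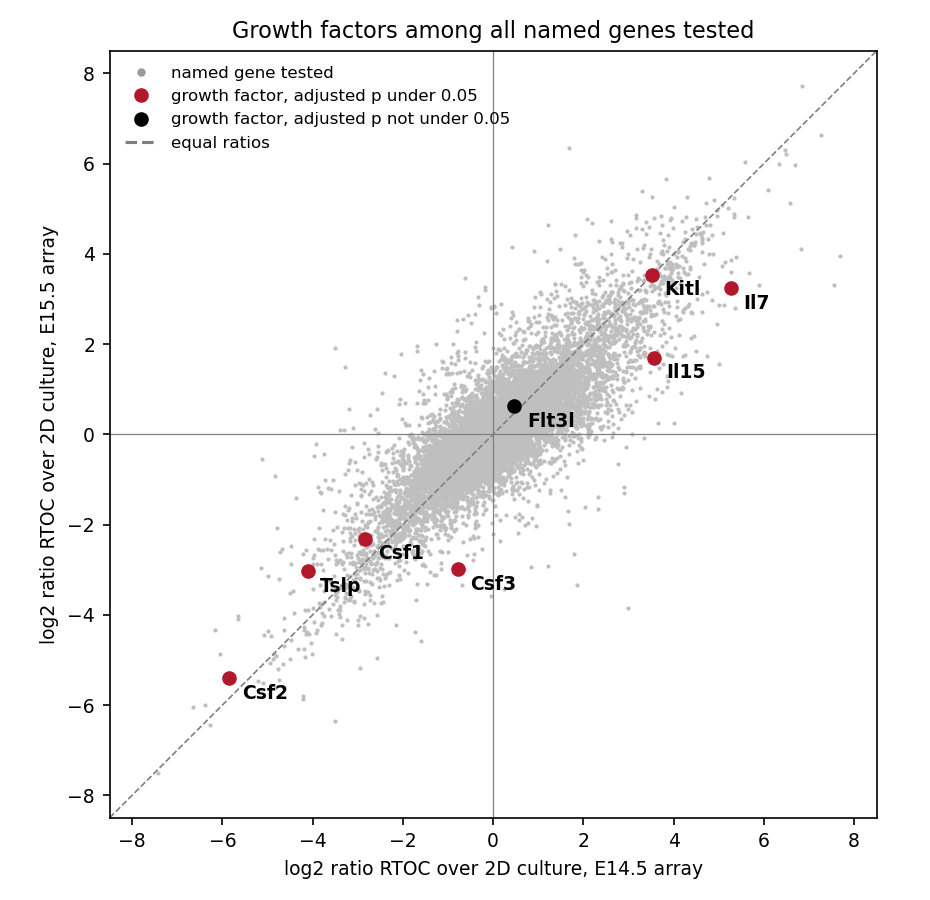
Log2 ratio of RTOC over 2D culture on the E14.5 array (x axis) against the E15.5 array (y axis) for the 13498 named genes tested (grey), with the 8 growth factors marked; the dashed line marks equal ratios. Kitl lies on the line at 3.51 and 3.54, whereas Il7 and Il15 lie to its right; Csf2 and Csf3 have RTOC at background on at least 1 array.

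The ratios of Il7 and Il15 differed between the arrays by more than those of most genes. The ratio on the E14.5 array minus that on the E15.5 array was 2.03 for Il7 and 1.87 for Il15, beside a median absolute difference of 0.39 over all named genes tested. It was -1.07 for Tslp, -0.52 for Csf1, -0.17 for Flt3l and -0.03 for Kitl. The order depended on the processing, and with normexp correction and loess the difference was -2.07 for Tslp, 1.67 for Il7, 1.21 for Il15, -0.72 for Csf1, 0.34 for Kitl and -0.03 for Flt3l. Csf2 and Csf3 are left out, since RTOC was at background on at least 1 array. With 1 array per stage none of these differences could be tested.

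The pattern of the 2 ratios was set against that of 12073 other genes well above background in all 4 channels, as the Euclidean distance between the pairs of log2 ratios. Likeness over 2 arrays is coarse. Flt3l had 454 genes within a distance of 0.25, Csf1 15, Kitl 8 and Il15 6, while Il7 and Tslp had 0. Nearest to Il7 were Nrarp, a Notch target gene (ratios 5.11 and 2.87), and Sparcl1, a matrix glycoprotein gene (5.02 and 2.86). Nearest to Il15 were Serpinb11 and Mpp7, nearest to Kitl were Dzank1 and Isg20, and nearest to Flt3l were Trak1 and Dck. Nearest to Csf1 were Nuak2 and Gprc5a. Nearest to Tslp were Msln, the mesothelin gene (-3.98 and -2.75), and Hs6st2, a heparan sulphate sulphotransferase gene (-3.76 and -3.20). Csf2 and Csf3 were not above background in all channels and were not compared.

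The genes of the receptors were read in the same fit. Of 12 receptor genes, 9 were tested, of which 4 were higher in RTOC and 5 did not pass, and the median ratio was 0.14. By the same rule 15.4% of named genes were higher.

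Among the receptors of the lymphoid factors, Il15ra, which holds interleukin-15 at the surface of the cell that makes it, was the one that passed. It read 8.37 in 2D culture and 10.91 in RTOC (E14.5), and 8.77 and 10.85 (E15.5), with the cultures well apart. The mean ratio was 2.31 ± 0.32 (SD, n = 2 arrays; SE 0.27, limma adjusted p = 0.00406), and a second probe gave 1.76 and 1.75 (limma adjusted p = 0.00714). With normexp correction and loess the mean was 1.45 by the brightest probe (limma adjusted p = 0.0198) and 0.88 by the second. Il7r, the chain shared by the receptors of Il7 and Tslp, had a mean of -0.58 (limma adjusted p = 0.140). Il2rg, the common gamma chain, was dim with a mean of 0.14 (limma adjusted p = 0.692), and Il2rb, its partner in the signalling receptor of interleukin-15, was above background in no channel. Crlf2, the Tslp receptor chain, named here from its accession where the array gives another symbol, had a mean of -0.36 (limma adjusted p = 0.361).

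Kit, the receptor of Kitl, was higher in RTOC, like its ligand, but unevenly. Its 10-spot probe read 7.89 in 2D culture and 9.25 in RTOC (E14.5), and 6.59 and 9.91 (E15.5). The cultures did not overlap. The ratio was 1.36 and 3.33, a mean of 2.34 ± 1.39 (SD, n = 2 arrays; SE 0.49, limma adjusted p = 0.0216), and without the E15.5 array it was 1.36. After normexp correction and loess it was 0.99 (limma adjusted p = 0.0544). Flt3, the receptor of Flt3l, was well above background in 1 of 4 channels and was not tested.

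Of the receptor genes of the colony stimulating factors, Csf1r and Csf2ra passed. Csf1r, a marker of macrophages, had a mean of 1.10 (SE 0.26, limma adjusted p = 0.0319) by its brightest probe, while its second probe gave -0.04 and 0.46 (limma adjusted p = 0.591). The call of the brightest probe was lost under a trended, robust eBayes (limma adjusted p = 0.0603) and with no replicate block (limma adjusted p = 0.0599). Csf2ra, the chain specific to Csf2, had a mean of 1.32 (SE 0.29, limma adjusted p = 0.0255), and its call was lost under the trended, robust fit (limma adjusted p = 0.0509). It read 12.63 in 2D culture and 14.30 in RTOC (E14.5), and 13.01 and 13.97 (E15.5), whereas the Csf2 ligand was at background in RTOC. The shared beta chains had means of -0.53 (Csf2rb, limma adjusted p = 0.171) and -0.70 (Csf2rb2, limma adjusted p = 0.124), so no change was called. The beta chain genes are near-identical, so their probes may cross-hybridise. Csf3r was well above background in 1 of 4 channels and was not tested.

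**Figure D5:**
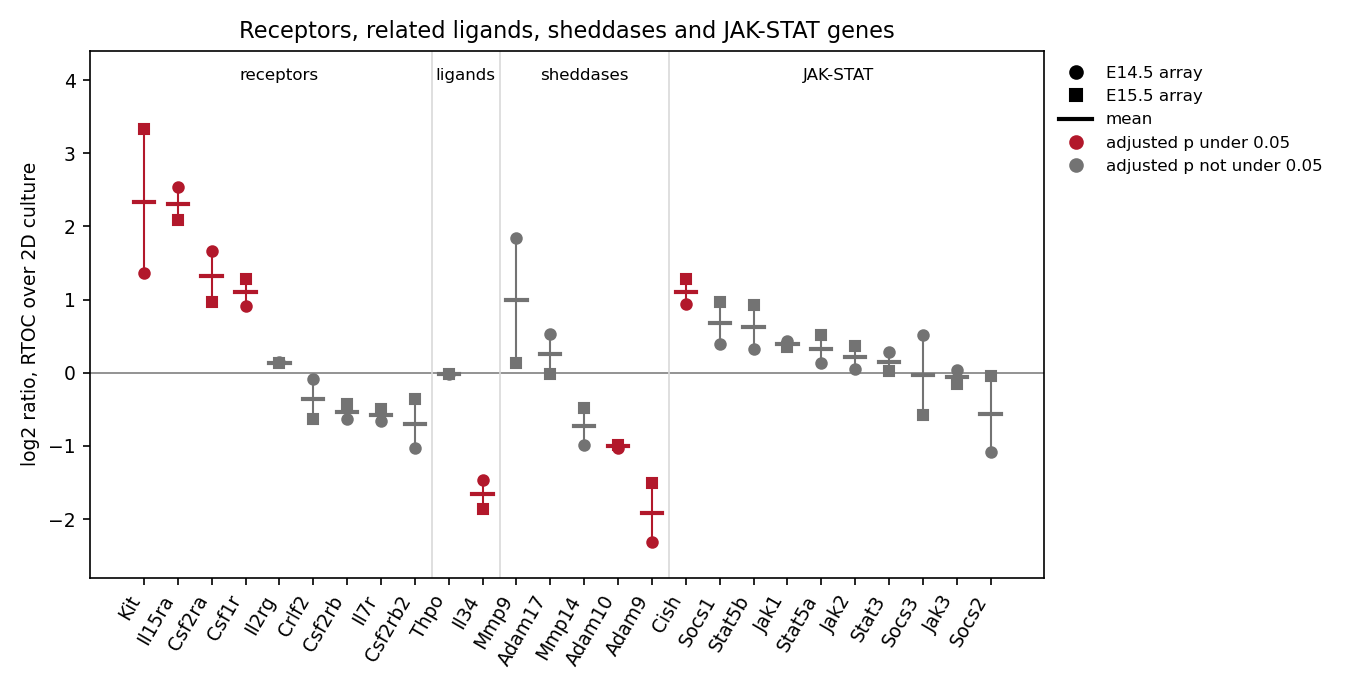
Log2 ratio of RTOC over 2D culture on the E14.5 (circles) and E15.5 (squares) arrays and their mean (bar) for the receptor, related ligand, sheddase and JAK-STAT genes that were tested, with those past the adjusted threshold in red. Il15ra, Kit, Csf2ra, Csf1r and Cish lie above 0 on both arrays, and Il34, Adam9 and Adam10 below it.

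Of 9 related ligands, 7 (Il2, Il3, Il4, Il5, Il9, Il21 and Epo) were above background in no channel, and 2 were tested. Il34, which shares the receptor of Csf1, was lower in RTOC, as Csf1 was. It read 8.81 in 2D culture and 7.35 in RTOC (E14.5), and 9.62 and 7.76 (E15.5), a mean ratio of -1.66 ± 0.28 (SD, n = 2 arrays; SE 0.26, limma adjusted p = 0.00981). After normexp correction and loess it was -0.70 (limma adjusted p = 0.0572). Thpo, the thrombopoietin gene, had a mean of -0.02 (limma adjusted p = 0.967) by its brightest probe. A second Thpo probe, well above background in RTOC alone, bounds the difference as at least 1.14-fold higher in RTOC (the fitted difference had limma adjusted p = 0.0231).

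Several of these factors are made as membrane proteins that proteases release. Of 5 sheddase genes, 2 were lower in RTOC, beside 12.7% of all named genes, and 3 did not pass. Adam9 fell by 1.91 on the log2 scale (SE 0.30, limma adjusted p = 0.00982) and Adam10 had ratios of -1.03 and -0.98 (SE 0.25, limma adjusted p = 0.0354). Adam17, the protease best known for releasing Csf1 and Kitl, had ratios of 0.53 and -0.02 (limma adjusted p = 0.522), Mmp9 a mean of 0.99 (limma adjusted p = 0.145) and Mmp14 one of -0.73 (limma adjusted p = 0.0979). A second Mmp14 probe gave -1.15 and -1.24 and passed (limma adjusted p = 0.0217). The call of Adam10 was lost after normexp correction and loess (-0.25, limma adjusted p = 0.221), under median centring (-0.82, limma adjusted p = 0.0624) and with no replicate block (limma adjusted p = 0.0659).

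Of 10 genes of JAK-STAT signalling and its feedback, through which the interleukins and the colony stimulating factors 2 and 3 signal, all 10 were tested, 1 was higher and 9 did not pass, beside 15.4% of all named genes called higher. The gene that passed was Cish, a feedback inhibitor induced by STAT5. It read 12.07 in 2D culture and 13.02 in RTOC (E14.5), and 11.64 and 12.92 (E15.5), a mean ratio of 1.11 (SE 0.26, limma adjusted p = 0.0297). Its call was lost under a trended, robust eBayes (limma adjusted p = 0.0586) and with no replicate block (limma adjusted p = 0.0541). The median ratio of the list was 0.27.

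Markers of the cell types of the cultures were read beside these genes, against 15.4% of all named genes called higher and 12.7% called lower in RTOC. Their levels were also summed over each list, and such a sum leans on its brightest probes. Of 12 thymic epithelium markers, 9 were higher in RTOC, and their summed linear signal went from 180846 to 882933 (E14.5) and from 435560 to 891651 (E15.5) between 2D culture and RTOC. Krt8, which did not pass, made up 72.3% and 87.0% of the 2D sums, and without it the sums were 50050 and 620780 (E14.5) and 56709 and 612981 (E15.5). All 12 were above background in at least 1 channel, and Krt14 was lower, at -1.86 (limma adjusted p = 0.00615). Fibroblast markers split, with 4 higher and 4 lower of 9, and their summed signal was 433181 and 275927 (E14.5) and 331963 and 296713 (E15.5). Without Col1a1, which made up 45.2% and 53.2% of the 2D sums, they were 237260 and 240220 (E14.5) and 155299 and 248256 (E15.5), so without that gene the sums did not fall. Of 7 endothelial markers, 6 were tested and 5 were called higher, of which Pecam1, Cdh5 and Tie1 were well above background in RTOC alone and are bounded as at least 1.42-fold, 5.01-fold and 1.12-fold higher. The summed signal of the list was 1646 and 6964 (E14.5) and 751 and 10589 (E15.5).

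Markers of blood cells were also measured in these cultures, which followed the deoxyguanosine treatment. Of 9 macrophage and myeloid markers tested, 5 were higher in RTOC, among them Adgre1 at 3.01 (limma adjusted p = 0.00233), and the list's summed signal was 71113 and 183579 (E14.5) and 58840 and 226216 (E15.5) in 2D culture and RTOC. Lyz2 made up 67.4% to 81.7% of these sums. Spi1 was above background in no channel. Csf1r, a receptor above, is also in that list. Of 6 mast cell markers, 4 were tested and 2 were called higher. Cpa3 was at least 1.80-fold higher (the fitted difference had limma adjusted p = 0.00253). Mcpt4 passed too (limma adjusted p = 0.00918), but in 2D culture it cleared the background on 1 of 2 arrays, its cultures overlapped, and it read 0.76 with normexp correction and loess. Their summed signal was 241 and 702 (E14.5) and 452 and 2267 (E15.5). Of 8 T lineage markers, 4 were tested and 1, Cd3g, was higher, while Cd8a and Cd2 were above background in no channel. In 2D culture Cd3g cleared the background on the E14.5 array alone. With normexp correction and loess its ratio was 1.93 (E14.5) and 0.46 (E15.5). The summed T lineage signal was 739 and 2566 (E14.5) and 1034 and 1072 (E15.5). The part of these cells in the growth factor and receptor ratios was not tested.

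RefSeq promoter sequences of the assembly GRCm38.p6 were matched to 4 of the 8 genes, Csf1, Csf2, Kitl and Flt3l. The 250 bases before the annotated start of 3 of them are shown, because these 3 genes had 10 spots per array and opposite directions. Capitals mark matches to the NF-kB consensus and to the TATA box motif TATAAA, each searched on both strands.
Kitl, chr10:100015571-100015820, + strand: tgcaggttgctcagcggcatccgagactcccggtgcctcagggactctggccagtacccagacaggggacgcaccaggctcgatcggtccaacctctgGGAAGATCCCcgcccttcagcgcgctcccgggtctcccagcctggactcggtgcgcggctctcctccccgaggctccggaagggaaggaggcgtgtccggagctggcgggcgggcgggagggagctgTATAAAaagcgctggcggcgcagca
Csf1, chr3:107760470-107760719, - strand: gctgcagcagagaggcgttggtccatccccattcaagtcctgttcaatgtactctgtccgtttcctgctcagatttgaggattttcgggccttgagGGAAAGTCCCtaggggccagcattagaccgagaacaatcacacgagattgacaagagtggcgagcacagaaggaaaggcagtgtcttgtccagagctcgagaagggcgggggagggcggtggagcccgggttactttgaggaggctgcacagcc
Csf2, chr11:54249900-54250149, - strand: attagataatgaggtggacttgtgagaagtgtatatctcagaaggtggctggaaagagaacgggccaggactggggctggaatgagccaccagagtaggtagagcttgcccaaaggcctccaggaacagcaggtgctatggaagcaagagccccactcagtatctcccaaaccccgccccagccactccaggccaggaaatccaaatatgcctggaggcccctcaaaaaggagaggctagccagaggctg
The NF-kB consensus matched once in Kitl, which was higher in RTOC, and once in Csf1, which was lower, in both on the minus strand of the window, 152 to 143 and 154 to 145 bases before the start. It was matched in 7.25% of all 32851 promoter windows of this length. TATAAA was found in Kitl, 25 to 20 bases before the start, and in 12.4% of all windows. Neither motif was found in the windows of Csf2 and Flt3l. The AP-1 motif TGANTCA (6.75% of windows) and the GAS motif of STAT factors (7.02%) were in none of the 4. These are matches of letters and show no binding.

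In the gene order of that assembly, Csf2 lies next to Il3, whose probe was above background in no channel, and next to P4ha2, a prolyl hydroxylase gene with a mean ratio of -2.24 (SE 0.25, limma adjusted p = 0.00379). Hey1, a Notch target gene and the second protein-coding gene from Il7 on one side, had ratios of 6.10 and 5.42, a mean of 5.76 (SE 0.29, limma adjusted p = 0.00161). Stmn2, which lies between them, had ratios of 1.48 and -0.77 (limma adjusted p = 0.647), and Zc2hc1a, on the other side of Il7, a mean of 0.42 (limma adjusted p = 0.256). P4ha2, Hey1, Stmn2 and Zc2hc1a were chosen after their values were seen.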

How the data were processed

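Total RNA of RTOC (Cy5) and 2D culture (Cy3) was hybridized together to 2 Agilent whole mouse genome arrays that shared 1 slide and 1 scan. The authors ran Feature Extraction (9.1.3.1 in the file headers, 11.5.1.1 in the submitters' processing notes). The deposited files hold mean, background and processed signals as an intensity, the last after background subtraction and dye normalization, and a log10 ratio of Cy5 over Cy3. They also hold a p-value of each ratio from the authors' error model, which was not used. The deposited series table repeats the processed signals of both dyes as a log10 ratio. The labels name TRIzol for the RNA, the methods a column kit, and the recorded scanner differs from that in the methods.

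Control spots and 5 (E14.5) and 1 (E15.5) non-uniform spots were dropped. Quantile normalization, the step the methods name, was run on the processed signals of all 4 channels together. Spots of a probe were averaged as log2. Of 41174 probes, 23685 with at least 1 channel well above background on each array were tested with limma 3.58.1 (R 4.3.3; intercept, eBayes, Benjamini-Hochberg, threshold 0.05). With 1 residual degree of freedom and 4.50 prior degrees, p-values lean on the spread of all probes. The arrays hold cells of different stages, so their spread includes stage and culture time as well as technical error. An array is the pair of both cultures; the replicate numbers of the labels name 1 array each.

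Probes were named through a RefSeq table by accession (22951), symbol (6659) or older symbol (3109), and 8455 kept the file's name. Well above background were 53.1% (2D culture) and 56.3% (RTOC) of probes at E14.5, and 53.5% and 60.9% at E15.5; the number of arrays limits the precision. The members, gene lists and the rule for named genes (all members, all receptors, up to 3 genes each way of other lists that passed, and the 2 nearest genes) were chosen with earlier results of these data known. The fit was tested on simulated data. Alternatives were normexp (offset 50) with loess, with or without Aquantile; median centring; the deposited log ratios and series values; no filter; all channels above background; non-uniform spots kept; a trended, robust eBayes; the methods' t-test; no replicate block; leaving out an array; and the median over the probes of a gene. Slide and scan could not be fitted as a block, since both arrays share them.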

Additional observations from a re-analysis of the deposited data

Results flagged for a closer look

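Some results named in the text moved in opposite directions on the 2 arrays. The second probe of Il15 was higher in RTOC by 0.13 on the E14.5 array and lower, at -0.44, on the E15.5 array, a difference of 0.57 on the log2 scale. The same held for the second Csf1r probe (-0.04 and 0.46, a difference of -0.50), for Adam17 (0.53 and -0.02, a difference of 0.55) and for Stmn2, a neighbour of Il7 (1.48 and -0.77, a difference of 2.25). None of these passed the test of the mean ratio. With 1 array per stage the differences were not tested, and the median absolute difference between the arrays was 0.39 over all named genes tested.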

How the results depend on the processing

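The 6820 probes called (3609 higher in RTOC) became 3709 after normexp correction with loess, with or without Aquantile, 4033 with no replicate block (the 4 channels as independent samples), 0 of 41168 with no filter on dim probes (limma, 10666 at an unadjusted p under 0.05) and 0 by the methods' t-test after adjustment (3539 before it). Of the 7 growth factor genes called, 4 were called after normexp correction with loess, with or without Aquantile, and 0 with no filter or by the methods' t-test (limma 6 and t-test 2 at an unadjusted p under 0.05). Of the 8 receptor, related ligand, signalling and sheddase genes called, 5 were called after normexp correction with loess, with or without Aquantile, under the trended robust fit and with no replicate block, and 0 with no filter or by the methods' t-test (12 of the 36 listed genes tested with no filter, and 2 of the 26 tested otherwise, at an unadjusted p under 0.05). With no filter and by the methods' t-test the ratios stayed as reported and were no longer called: 4.26 for Il7 (adjusted p = 0.156 with limma, 0.383 by the t-test), 2.63 for Il15 (0.214 and 0.425), 3.53 for Kitl (0.117 and 0.315), -3.57 for Tslp (0.125 and 0.358), -2.57 for Csf1 (0.117 and 0.339), -5.63 for Csf2 (0.117 and 0.327) and -1.88 for Csf3 (0.338 and 0.503). After normexp correction with loess, with or without Aquantile, Il15 at 1.60, Tslp at -1.96 and Csf3 at -0.21 were not called, and with no replicate block Tslp (-3.57) and Csf3 (-1.88, adjusted p = 0.274) were not. The median over the probes of a gene was 1.23 for Il15 and 3.22 for Kitl. Leaving out each array gave 3.24 to 5.27 for Il7, 1.70 to 3.56 for Il15, 3.51 to 3.54 for Kitl, 0.47 to 0.63 for Flt3l, -4.11 to -3.03 for Tslp, -2.83 to -2.31 for Csf1, -5.85 to -5.41 for Csf2 and -2.98 to -0.78 for Csf3, with no test. No growth factor ratio changed sign under the alternatives run. Median centring moved all probes by 0.15 (median, log2) and the share of higher calls from 52.9% to 65.1%. Csf2 and Csf3 have no value with all 4 channels above background. The cause of these changes was not tested. Signal over background limits Csf2, Csf3, the second probes of Kitl and Il15, and Tslp in RTOC at E15.5, and the number of arrays limits all values.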
